A study of Mus musculus with 12 samples.

Results

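The casein kinase 1 (CK1) genes are Csnk1a1, Csnk1d, Csnk1e, Csnk1g1, Csnk1g2 and Csnk1g3, which encode the kinases CK1α, CK1δ, CK1ε, CK1γ1, CK1γ2 and CK1γ3. They were taken by name, as 6 of the 54100 gene features listed for all 12 libraries of the series, and all 6 were measured in every library. The series is about CK1α and the cGAS-STING pathway, by which DNA in the cytosol raises interferon. Polyadenylated RNA of mouse cells was sequenced, with 2 libraries in each of 6 groups. In 4 libraries, labelled BMDM (bone marrow-derived macrophages), the compound SSTC3, known as an activator of CK1α, was set against its solvent DMSO. The other 8 libraries, labelled MEF (mouse embryonic fibroblasts), set CK1α overexpression (CK1a_OV) against its control (OV_control), and CK1α siRNA (CK1a_siRNA) against its control (knockdown_control).

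All 12 libraries are labelled C57BL/6J. The cell line names of the BMDM libraries are TREX1-KO and TREX2-KO for the SSTC3 libraries and TREX3-KO and TREX4-KO for the DMSO libraries, so that the treated and the solvent cells carry a knockout name alike, and each library a different one. Trex1 had 0 counts in all 12 libraries, so its counts could not check a Trex1 knockout, and no other gene was read for these names. The labels give no dose, time, construct or siRNA sequence. They do not say that the 2 libraries of a group came from separate cultures, so a p-value here weighs a difference against a spread between libraries that may be only technical. Library totals ran from 16063627 to 19427506 counts. Against the BMDM label, the summed level of 12 macrophage markers was 8.96 to 10.9 CPM of the library total (CPM are counts scaled to a common library size) in those 4 libraries, and 4 to 7 of the 12 were at 0. In the same libraries, 12 fibroblast markers summed to 8191 to 9265 CPM. The overexpression set had a macrophage sum of 13.7 to 16.9 CPM and a fibroblast sum of 3858 to 4421 CPM. For the knockdown set the sums were 255 to 308 CPM and 3564 to 4278 CPM, and 246 to 296 CPM of its macrophage sum was Cd68 alone.

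CK1 enzymes are serine/threonine kinases that act as single chains and are active without an upstream kinase. They favour substrates that already carry a phosphate or acidic residues near the target. CK1α sits in the β-catenin destruction complex, where it places the first phosphate that GSK3 then extends. CK1δ and CK1ε are close relatives that phosphorylate the clock proteins PER and CRY, and the CK1γ enzymes are held at the plasma membrane by a lipid anchor and phosphorylate the Wnt co-receptor LRP6.

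Since the kinase domains are alike, transcripts were compared to see whether reads of 150 bases could fall to the wrong member. Sequences and positions came from GENCODE M21 on the mouse build mm10. The windows and identical runs given here come from 1 transcript per gene, that with the longest coding sequence, read in the sense direction. Other transcripts of the genes were not compared in this way. The closest pair of ungapped windows of 150 bases belonged to Csnk1d and Csnk1e, with 18 mismatches (88.0% identity). Csnk1g1 and Csnk1g3 came next, with 23 mismatches (84.7% identity), and the other 13 pairs differed at 29 to 51 bases. The longest identical runs between members were 31 bases, in Csnk1e and Csnk1g2, and 23 bases, in Csnk1d and Csnk1e. The 2 pairs of coding windows that hold these runs are printed here, each within 1 exon and 5′ to 3′ in the sense of its gene (minus strand for Csnk1d and Csnk1e, plus for Csnk1g2), with the bases that differ within a pair in capitals. They lie at chr11:120971567-120971626 (Csnk1d, exon 6 of 9) and chr15:79424840-79424899 (Csnk1e, exon 7 of 11), which differ at 9 of 60 bases, and at chr15:79429758-79429817 (Csnk1e, exon 4 of 11) and chr10:80638204-80638263 (Csnk1g2, exon 4 of 11), which differ at 12 of 60.
Csnk1d: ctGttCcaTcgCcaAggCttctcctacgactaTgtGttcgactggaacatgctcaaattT
Csnk1e: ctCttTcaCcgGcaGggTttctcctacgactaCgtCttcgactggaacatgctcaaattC
Csnk1e: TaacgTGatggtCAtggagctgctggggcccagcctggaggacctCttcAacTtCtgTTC
Csnk1g2: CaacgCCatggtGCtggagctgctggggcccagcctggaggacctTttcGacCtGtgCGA

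In full, the 6 genes lie on 5 chromosomes. Csnk1a1 (ENSMUSG00000024576) spans chr18:61555274-61590061 on the plus strand, and Csnk1g3 (ENSMUSG00000073563) spans chr18:53862122-53955548 on the plus strand. Csnk1d (ENSMUSG00000025162) spans chr11:120961749-120991330 on the minus strand. Csnk1e (ENSMUSG00000022433) spans chr15:79417856-79455566 on the minus strand. Csnk1g1 (ENSMUSG00000032384) spans chr9:65908924-66045015 and Csnk1g2 (ENSMUSG00000003345) chr10:80622838-80640749, both on the plus strand.

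Runs of 50 bases shared with a gene outside the family were more of a limit than those between members. None were found for Csnk1a1 or Csnk1g2, and they made up 0.352%, 2.58% and 0.611% of all such runs in Csnk1d, Csnk1e and Csnk1g1. In Csnk1g3 they made up 9.18%, all with the processed pseudogene Gm14584, which had 56 to 89 counts per library. Antisense genes overlap the exons of Csnk1d (Gm28192, 63 bases, 16 to 59 counts) and of Csnk1e (Gm16059, 267 bases, 2 to 20 counts). The strand setting of the counting is not given in the sources used here, so reads of these overlaps cannot be assigned. Gm14584 and Gm28192 passed the test in no comparison. Gm16059 was tested with SSTC3 only (log2 1.32, edgeR adjusted p = 0.0377). It had 0.824 and 1.18 CPM with SSTC3 and 0.352 and 0.475 CPM with DMSO. It passed the filter on low counts only through the treated group, so no result is drawn from that call.

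The control groups show which CK1 transcripts each cell set held. Levels of different genes were compared as CPM per kilobase, with the length taken as the union of a gene's annotated exons. Csnk1a1, Csnk1d and Csnk1g2 were the leading members of the DMSO and knockdown_control libraries, and Csnk1d alone led in OV_control. Csnk1g1 was the lowest in all 3 sets.

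In the DMSO libraries, Csnk1g2 stood at 43.3 ± 3.54 CPM per kilobase (SD, n = 2), Csnk1d at 40.3 ± 0.0229 and Csnk1a1 at 40.1 ± 1.13, so the 3 differed by less than the spread of Csnk1g2. Csnk1e followed at 18.2 ± 1.13 CPM per kilobase, Csnk1g3 at 15.7 ± 0.540 and Csnk1g1 at 2.93 ± 0.103. Among the 13183 genes compared there, Csnk1g2 stood at percentile 90.6 of level per kilobase and Csnk1g1 at percentile 32.3. In the OV_control libraries, Csnk1d stood first at 34.1 ± 0.389 CPM per kilobase, above Csnk1g2 at 22.9 ± 1.40 and Csnk1a1 at 22.5 ± 0.205, which did not differ beyond their spread. Csnk1e at 19.99 ± 0.885, Csnk1g3 at 17.9 ± 0.704 and Csnk1g1 at 6.43 ± 0.0984 CPM per kilobase completed that order. In the knockdown_control libraries, Csnk1a1 at 32.3 ± 1.96 and Csnk1d at 32.0 ± 0.644 CPM per kilobase did not differ beyond their spread, and Csnk1g2 came next at 28.4 ± 1.25. The step down from there was large: Csnk1e stood at 11.7 ± 0.287, Csnk1g3 at 4.54 ± 0.286 and Csnk1g1 at 1.93 ± 0.00910 CPM per kilobase.

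As a share of the family's summed CPM per kilobase, Csnk1a1 made up 25.0% ± 1.19 (SD, n = 2) in DMSO, 18.2% ± 0.121 in OV_control and 29.1% ± 1.59 in knockdown_control. The share of Csnk1d varied less, at 25.1% ± 0.473, 27.5% ± 0.246 and 28.9% ± 0.749. Csnk1g2 took 27.0% ± 1.68, 18.5% ± 1.08 and 25.6% ± 1.27. The share of Csnk1e was highest in OV_control, at 16.1% ± 0.755, against 11.3% ± 0.481 in DMSO and 10.6% ± 0.196 in knockdown_control. Csnk1g3 went from 4.09% ± 0.234 in knockdown_control to 9.80% ± 0.527 in DMSO and 14.5% ± 0.604 in OV_control. The share of Csnk1g1 was 1.74% ± 0.00197 in knockdown_control, 1.82% ± 0.0285 in DMSO and 5.19% ± 0.0923 in OV_control.

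These shares turn on the length that is used, because the annotated exons of Csnk1a1 add up to 10502 bases and its longest transcript to 4083. Per kilobase of the longest transcript, Csnk1a1 led in all 3 control groups, with 38.4% ± 1.55 in DMSO, 28.2% ± 0.268 in OV_control and 43.0% ± 1.80 in knockdown_control. Which transcripts the cells used was not measured by gene counts. Csnk1g1, whose exons add up to 15621 bases, was the lowest under both lengths. By raw counts it held 12.1% in OV_control and 3.9% in knockdown_control, above Csnk1g3 at 9.4% and 2.6%. With the longest coding sequence as the length, Csnk1g3 was again the lowest in those groups. In DMSO, Csnk1g1 was the lowest under every length run.

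**Figure D1:**
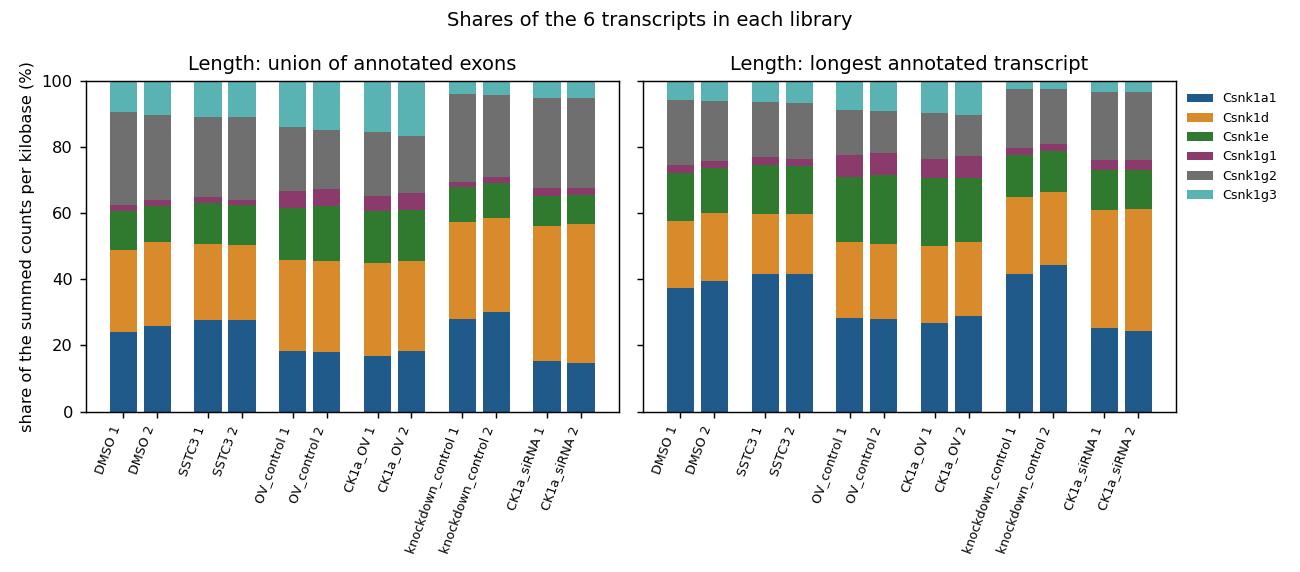
Stacked bars give the share (%) of each CK1 gene in the summed counts per kilobase of the 6 genes, 1 bar per library, with the length as the union of exons (left) or the longest transcript (right). The Csnk1a1 band is shorter and the Csnk1d band taller in the CK1a_siRNA bars than in any other bar of either panel, and the Csnk1a1 share in DMSO is 25.0% on the left and 38.4% on the right.

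Each gene was then compared between the control groups, in a single edgeR quasi-likelihood fit of all 12 libraries with Benjamini-Hochberg adjustment over 17105 genes. Cells, treatment of the controls and library batch cannot be told apart in these differences, nor, in bulk RNA, fewer cells of a type from less RNA per cell. The OV_control files also list 55401 features and the DMSO and knockdown_control files 54532, so OV_control was counted on another feature list. The part of that list in the differences and in the shares above was not tested. Between DMSO and OV_control, 4 of 6 members differed, where 68.7% of all genes did (33.8% higher in DMSO and 34.9% lower). Csnk1a1, with 413.2 and 430.0 CPM in DMSO and 237.8 and 234.7 CPM in OV_control, was higher in DMSO by a log2 difference of 0.96 ± 0.04 (SE, adjusted p = 2.32e-37). Csnk1g2, with 221.6 and 197.3 CPM in DMSO and 115.5 and 106.0 CPM in OV_control, was higher in DMSO by 1.04 ± 0.05 (adjusted p = 2.15e-24). Csnk1g1 went the other way, with 46.9 and 44.6 CPM in DMSO and 99.3 and 101.5 CPM in OV_control (−1.01 ± 0.07, adjusted p = 6.45e-25). Csnk1d was higher in DMSO by 0.36 ± 0.05 (adjusted p = 1.24e-11). Csnk1e (−0.01, 95% interval −0.12 to 0.09) and Csnk1g3 (−0.07, −0.20 to 0.06) did not pass.

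Between DMSO and knockdown_control, 6 of 6 members were higher in DMSO, where 80.7% of all genes differed, 38.8% higher in DMSO and 41.9% lower. The widest gap was that of Csnk1g3, with 66.7 and 70.1 CPM in DMSO and 18.9 and 20.6 CPM in knockdown_control, a log2 difference of 1.64 ± 0.08 (adjusted p = 5.53e-35). Csnk1e, Csnk1g1 and Csnk1g2 were higher by 0.49, 0.46 and 0.46, and Csnk1a1 and Csnk1d by 0.16 and 0.18. With library totals as the scaling, the last 2 differences were 0.31 and 0.33, and with RLE factors 0.12 and 0.14. The 2 MEF control groups differed in 6 of 6 members as well, where 79.8% of genes did, 38.4% higher in OV_control and 41.4% lower. Csnk1g3, with 75.7 and 80.1 CPM in OV_control, was 3.26-fold higher there than in knockdown_control (log2 1.71 ± 0.08, adjusted p = 1.64e-36). Csnk1g1 was higher in OV_control by 1.47 and Csnk1e by 0.50, while Csnk1a1 was lower by −0.79 and Csnk1g2 by −0.58. The small difference of Csnk1d, −0.18, turned to 0.09 (adjusted p = 0.073) when libraries were scaled by their totals.

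That scaling moves the median of all genes from −0.05 to 0.19 between the MEF controls, from −0.05 to 0.08 between DMSO and knockdown_control, and from 0.00 to −0.12 between DMSO and OV_control. Relative to the median of all genes, Csnk1d was lower in OV_control than in knockdown_control under both scalings, by −0.13 and −0.11. Csnk1g3 stood 1.76 and 1.78 above that median in the same comparison. The sets also differ in the number of counts behind a value, since Csnk1g3 had 1138 to 1180 counts in DMSO and 303 to 368 in knockdown_control.

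**Figure D2:**
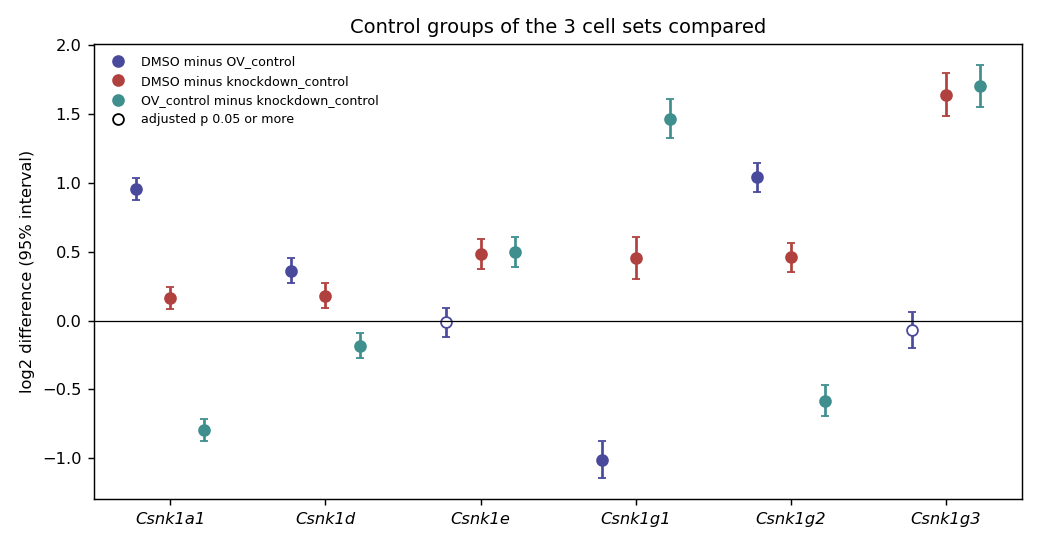
Points give the log2 difference of each CK1 gene between 2 control groups and bars its 95% interval, open where the adjusted p is 0.05 or more. Csnk1g3 is high in both comparisons with knockdown_control (1.64 and 1.71), and only Csnk1e and Csnk1g3 in DMSO minus OV_control are open.

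In the knockdown of CK1α with siRNA, the Csnk1a1 transcript was lower and other members differed as well. Csnk1a1 had 171.5 and 169.2 CPM in the CK1a_siRNA libraries and 325.0 and 354.1 CPM in their controls, the largest gap of any member. Csnk1d, Csnk1g1 and Csnk1g3 were higher in the CK1a_siRNA libraries and Csnk1e was lower. In all, 5 of 6 members passed an adjusted p of 0.05 and 3 of them were higher, while 54.7% of the 14832 genes tested passed, 28.3% higher and 26.4% lower. The same 5 members did not overlap between the groups, as was the case for 75.7% of genes.

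Csnk1a1 fell by a log2 change of −0.96 ± 0.05 (95% interval −1.05 to −0.87, adjusted p = 2.88e-27) and ranked 222nd by p among all genes.

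Of the clock kinases, Csnk1d had 217.8 and 232.1 CPM with the siRNA and 163.2 and 158.7 CPM in controls. Both siRNA libraries were above both controls, and the change was 0.52 ± 0.05 on the log2 scale, or 1.43-fold (95% interval 0.42 to 0.62, adjusted p = 1.73e-14). Its close relative Csnk1e had 64.2 and 63.3 CPM against 76.0 and 78.7 CPM and fell, by −0.24 ± 0.07 (95% interval −0.38 to −0.11, adjusted p = 0.00122). The 2 kinases of the δ/ε branch therefore moved in opposite directions. Counts of Csnk1d per count of Csnk1e, a ratio that needs no scaling, were 3.39 and 3.67 with the siRNA and 2.15 and 2.02 in controls. Counts of Csnk1d per count of Csnk1a1 were 1.27 and 1.37 with the siRNA and 0.502 and 0.448 in controls, so Csnk1d had more counts than Csnk1a1 in both siRNA libraries and in neither control.

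Among the membrane-bound kinases, Csnk1g1 had 37.1 and 37.1 CPM with the siRNA and 30.0 and 30.2 CPM in controls, a change of 0.34 ± 0.09 (95% interval 0.16 to 0.51, adjusted p = 0.000911). Csnk1g2 had 140.1 and 145.8 CPM against 141.7 and 133.2 CPM, groups that overlap, and its change of 0.09 ± 0.05 (95% interval −0.01 to 0.20, adjusted p = 0.138) did not pass. Without knockdown_control replicate 1 it did, at 0.14 (adjusted p = 0.0177). Csnk1g3, the least abundant by counts in this set, had 24.1 and 23.8 CPM against 18.9 and 20.6 CPM, a change of 0.31 ± 0.11 (95% interval 0.10 to 0.53, adjusted p = 0.0111). That call was lost without CK1a_siRNA replicate 1 (adjusted p = 0.0519), CK1a_siRNA replicate 2 (0.052) or knockdown_control replicate 1 (0.0796), and with DESeq2 (0.0751). The pseudogene Gm14584 had 11.97% to 22.4% as many counts as Csnk1g3 in this set, and its own change of −0.18 did not pass (adjusted p = 0.574). With its counts added, Csnk1g3 stood at 27.0 and 28.0 CPM with the siRNA and at 23.1 and 24.6 CPM in controls.

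Summed over the 6 members, the CK1a_siRNA libraries held 663 ± 11.6 CPM (SD, n = 2) and their controls 765 ± 14.6 CPM, a change of −13.4%. The 5 members other than Csnk1a1 summed to 493 ± 13.2 CPM against 426 ± 5.99 CPM, a change of 15.8%, and the groups did not overlap in either sum. Csnk1a1 accounted for a change of −169 CPM and Csnk1d for 64.0 CPM. Csnk1g1, Csnk1g2 and Csnk1g3 added 7.01, 5.43 and 4.21 CPM, and Csnk1e took away −13.6 CPM. The change of the sum depends on the length used. Per kilobase of exon union, Csnk1a1 lost −16.1 and Csnk1d gained 12.7 CPM per kilobase, and the sum of 6 changed by −2.60%. Per kilobase of the longest transcript, the values were −41.5 and 17.4 CPM per kilobase and the sum changed by −12.9%. No test was made on these sums. The macrophage marker sum was 308 and 305 CPM with the siRNA and 260.1 and 255 CPM in controls, with 1 or 2 of the 12 markers at 0, and the fibroblast sum 4184 and 4278 CPM against 3613 and 3564 CPM. The macrophage sum was almost all Cd68 (296 and 295 CPM against 252 and 246 CPM). Of the 5 macrophage markers tested 2 were higher (Mpeg1 and Cd68) and 1 lower (Fcgr1). The shares of all genes to set beside these and the fibroblast markers were 28.3% higher and 26.4% lower. Fcgr1 had 0.206 and 0.105 CPM with the siRNA and 0.872 and 1.35 CPM in controls. It passed the filter on low counts only through the controls. The higher fibroblast sum came from Vim (3465 and 3555 CPM against 2669.9 and 2637 CPM), since of the 8 fibroblast markers tested 1 was higher and 4 were lower, Pdgfrb by −1.22, Pdgfra by −0.96, S100a4 by −0.55 and Fn1 by −0.10. The part of these markers in the differences was not tested.

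In shares of CPM per kilobase of exon union, Csnk1a1 went from 29.1% ± 1.59 in controls to 15.0% ± 0.498 with the siRNA, and Csnk1d from 28.9% ± 0.749 to 41.4% ± 0.886. Csnk1g2 held 25.6% ± 1.27 and 27.3% ± 0.130. The first place among the 6 thus lay with Csnk1d in the siRNA libraries under both lengths, since its share per kilobase of the longest transcript was 36.3% ± 0.972 against 24.8% ± 0.691 for Csnk1a1.

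**Figure D3:**
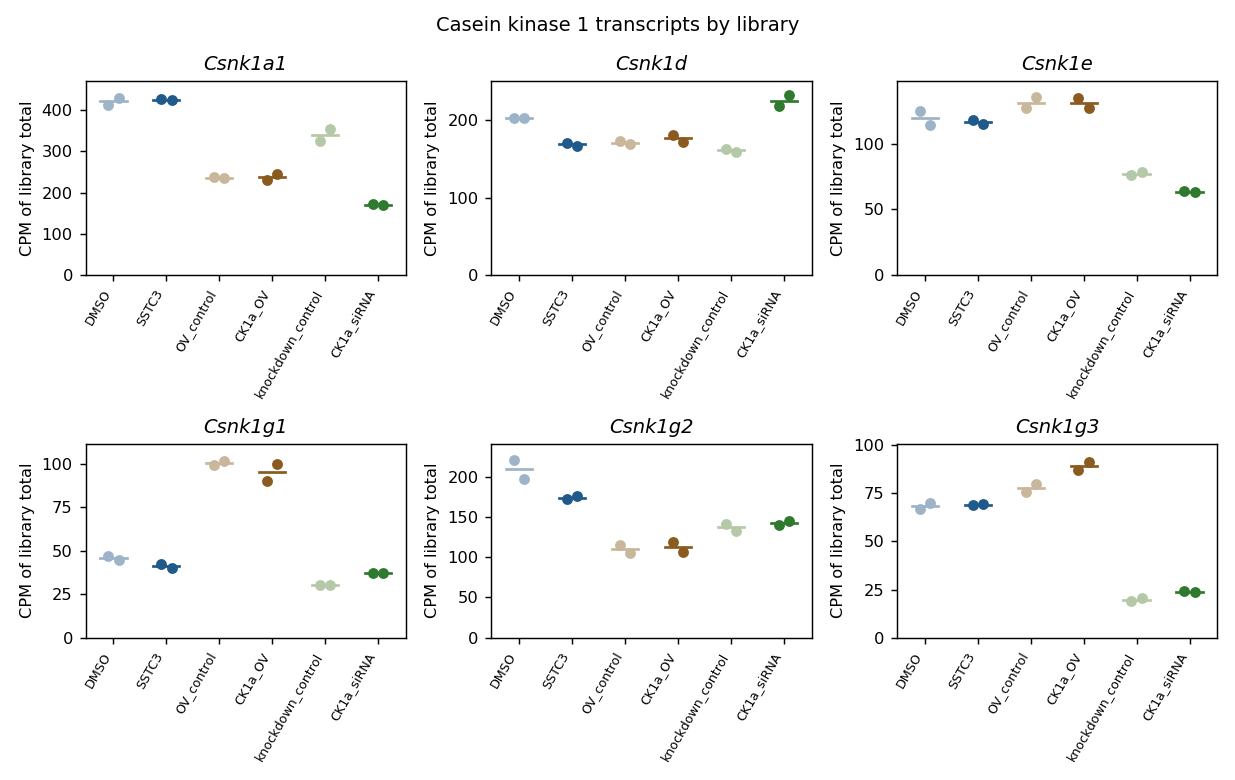
Points give the level of each CK1 gene in CPM of the library total, 1 point per library, with a line at the mean of each group, and each panel has its own axis from 0. Csnk1a1 is lowest in the CK1a_siRNA libraries (171.5 and 169.2 CPM) and Csnk1d highest there (217.8 and 232.1 CPM), while Csnk1g3 is low in both groups of the knockdown set.

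With SSTC3, the Csnk1a1 transcript did not pass the test and 2 other members were lower. Csnk1d, a clock kinase, and Csnk1g2, a membrane-bound kinase, fell by nearly the same amount. These were 2 of 6 members past the threshold, both lower, where 53.6% of the 14151 genes tested passed, 27.1% higher and 26.5% lower. The groups did not overlap for Csnk1d, Csnk1g1 and Csnk1g2, as for 75.3% of genes. The share of members called was thus below that of all genes, with no test of that difference.

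Csnk1a1 had 426.4 and 424.0 CPM with SSTC3 and 413.2 and 430.0 CPM with DMSO, values that overlap, and the log2 change was 0.07 ± 0.04 (95% interval −0.00 to 0.14, adjusted p = 0.111). Csnk1d had 170.2 and 166.9 CPM against 202.4 and 202.2 CPM, a change of −0.21 ± 0.04 (95% interval −0.30 to −0.12, adjusted p = 1.8e-05). Both treated libraries lay below both solvent libraries. Csnk1e, with 118.2 and 115.4 CPM against 125.3 and 114.8 CPM, overlapped and did not pass (0.02, 95% interval −0.09 to 0.12, adjusted p = 0.825). The ratio of Csnk1d to Csnk1a1 counts was 0.399 and 0.394 with SSTC3 and 0.490 and 0.470 with DMSO.

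Csnk1g2 had 172.3 and 176.3 CPM with SSTC3 and 221.6 and 197.3 CPM with DMSO, a change of −0.21 ± 0.04 (95% interval −0.30 to −0.12, adjusted p = 1.69e-05). The 2 solvent libraries were further apart for this gene than for Csnk1d, but both were above the treated ones. Csnk1g1 had 42.1 and 40.0 CPM against 46.9 and 44.6 CPM, and its change of −0.10 ± 0.08 (95% interval −0.25 to 0.05, adjusted p = 0.256) did not pass. Csnk1g3, with 68.7 and 69.2 CPM against 66.7 and 70.1 CPM, overlapped (0.07, 95% interval −0.06 to 0.19, adjusted p = 0.375). All 6 genes kept their side of the threshold under the 12 alternatives run for this comparison, with Csnk1d between −0.26 and −0.20 and Csnk1g2 between −0.30 and −0.13. The smallest change of Csnk1g2 was that without DMSO replicate 1 (−0.13, adjusted p = 0.0309).

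The summed level of the 6 members was 995 ± 4.32 CPM with SSTC3 and 1068 ± 12.02 CPM with DMSO, a change of −6.82%, which became −3.70% when TMM factors were used. The 5 members other than Csnk1a1 changed by −11.8% (−8.87% with TMM factors). In shares per kilobase of exon union, Csnk1a1 held 27.7% ± 0.0471 with SSTC3 and 25.0% ± 1.19 with DMSO, Csnk1d 22.9% ± 0.264 and 25.1% ± 0.473, and Csnk1g2 24.6% ± 0.460 and 27.0% ± 1.68. By that length Csnk1a1 was thus first of the 6 with SSTC3 and, within the spread, level with Csnk1d and Csnk1g2 with DMSO. Per kilobase of the longest transcript it was first in both groups, at 41.5% ± 0.0136 with SSTC3 and 38.4% ± 1.55 with DMSO. The fibroblast marker sums given above were also lower with SSTC3 (8191 and 8269.8 CPM) than with DMSO (9265 and 8974 CPM). Of the 10 fibroblast markers tested 3 were higher (Vim, Fn1 and Thy1) and 5 lower (Col1a1, Col1a2, Col3a1, Pdgfra and Pdgfrb). Of all genes, 27.1% were higher and 26.5% lower. The part of these markers in the differences was not tested.

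In the libraries labelled CK1a_OV, Csnk1a1 was not higher than in their controls. It had 229.3 and 244.4 CPM against 237.8 and 234.7 CPM, values that overlap, and the log2 change was −0.01 ± 0.04 (95% interval −0.08 to 0.06, adjusted p = 0.901). The labels do not give the construct, so whether its transcript would be counted under Csnk1a1 is not known. Of the other members, Csnk1g3 alone passed, and it was higher. That is 1 of 6 members, where 13.3% of the 13958 genes tested passed, 5.78% higher and 7.57% lower.

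Csnk1g3 had 87.0 and 91.2 CPM in the CK1a_OV libraries and 75.7 and 80.1 CPM in controls, a change of 0.18 ± 0.05 (95% interval 0.07 to 0.29, adjusted p = 0.0158). It was the only member whose groups did not overlap, as was the case for 53.8% of genes. The call was lost with DESeq2 (adjusted p = 0.157), in the fit of all 12 libraries (0.0789), without CK1a_OV replicate 2 (0.138) and without OV_control replicate 1 (0.21). With the counts of Gm14584 added, the levels were 91.7 and 95.3 CPM against 80.7 and 84.6 CPM.

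The fibroblast marker sum was 3858 and 3866 CPM in these CK1a_OV libraries and 4421 and 4379.9 CPM in controls. Of the 8 fibroblast markers tested 0 were higher and 6 lower, beside 5.78% and 7.57% of all genes. Their part in the result was not tested.

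The clock kinases overlapped between these groups. Csnk1d had 181.1 and 172.3 CPM against 172.5 and 169.7 CPM (log2 0.03, 95% interval −0.05 to 0.11, adjusted p = 0.662), and Csnk1e had 135.3 and 127.2 CPM against 127.6 and 135.9 CPM (−0.02, −0.11 to 0.07, adjusted p = 0.846). Csnk1g1 had 90.3 and 99.9 CPM against 99.3 and 101.5 CPM (−0.09, −0.19 to 0.01, adjusted p = 0.25). Csnk1g2 had 119.6 and 106.1 CPM against 115.5 and 106.0 CPM (0.01, −0.09 to 0.12, adjusted p = 0.913). No member of this comparison had an interval beyond 0.29 in either direction. The 6 members summed to 842 ± 1.03 CPM against 828 ± 0.436 CPM, a change of 1.66%, and to a change of 0.43% with TMM factors. Csnk1a1 held 17.7% ± 1.06 of the family per kilobase of exon union in CK1a_OV and 18.2% ± 0.121 in OV_control, and Csnk1d 27.6% ± 0.553 and 27.5% ± 0.246.

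**Figure D4:**
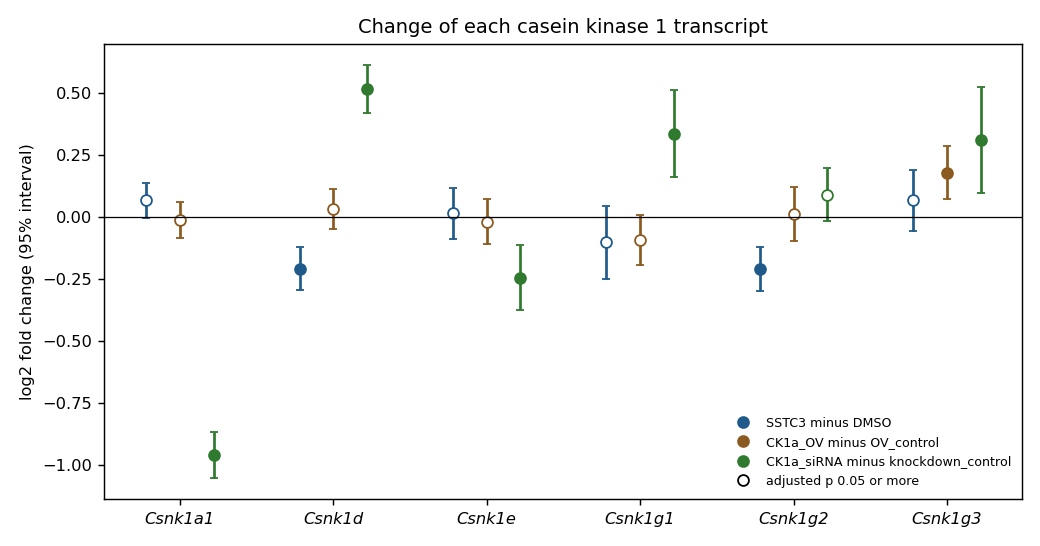
Points give the log2 fold change of each CK1 gene in the 3 comparisons and bars its 95% interval, open where the adjusted p is 0.05 or more. Csnk1d lies at −0.21 with SSTC3, 0.03 with overexpression and 0.52 with knockdown, and Csnk1a1 is far from 0 with knockdown alone.

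Whether a member responded differently in 2 comparisons was tested as a contrast in the fit of all 12 libraries. The comparisons share no library. The knockdown effect differed from the SSTC3 effect in 5 of 6 members, where 45.1% of genes differed (21.6% upward and 23.5% downward). Csnk1d had the largest such difference after Csnk1a1, 0.70 ± 0.06 (adjusted p = 7.48e-17), as it fell with SSTC3 and rose with the siRNA. Csnk1g3 did not pass there (0.21, 95% interval −0.00 to 0.43, adjusted p = 0.104). The knockdown and overexpression effects differed in 4 of 6 members, Csnk1a1, Csnk1d, Csnk1e and Csnk1g1, where 35.1% of genes differed (18.3% upward and 16.8% downward). The rise of Csnk1g3 was 0.31 in the one and 0.18 in the other, and these were not shown to differ (0.10, 95% interval −0.12 to 0.31, adjusted p = 0.544). The overexpression and SSTC3 effects differed in 2 of 6 members, Csnk1d and Csnk1g2, where 32.7% of genes differed (15.5% upward and 17.2% downward).

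Genes tied to the CK1 enzymes were read from the same fits. Their counts stand against the shares of all genes called, 27.1% higher and 26.5% lower with SSTC3, 5.78% and 7.57% with overexpression, and 28.3% and 26.4% with the siRNA. The median log2 changes of all genes were 0.01, 0.00 and −0.01. No list was tested against other genes. The first group holds proteins that anchor or activate CK1, namely the FAM83 family, the RNA helicase DDX3X, which activates CK1ε, and AKAP9, which places CK1δ at the centrosome. With SSTC3, 3 of the 7 tested were higher and 2 lower, with a median of −0.10. Of the 3 higher, Fam83c (1.65 and 2.30 CPM against 0.176 and 0.178) and Fam83g (0.942 and 0.649 CPM against 0.0586 and 0) were near 0 with DMSO and passed the filter on low counts only through the treated group. Fam83h, with 42.6 and 42.5 CPM against 19.9 and 18.6 CPM, rose by 1.20 ± 0.09, and Akap9 (−0.57 ± 0.07) and Ddx3x (−0.28 ± 0.03) fell. With the siRNA, 1 of 6 was higher and 1 lower, with a median of −0.11. Fam83d, which takes CK1α to the mitotic spindle, rose by 0.97 ± 0.08 from 29.6 and 38.7 to 65.2 and 66.2 CPM, and Akap9 fell by −0.46 ± 0.07. With overexpression, Akap9 rose by 0.24 ± 0.07 and the other 4 tested did not pass.

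The Wnt list holds the destruction complex and the Wnt receptors and adaptors that CK1 enzymes phosphorylate. With SSTC3, 1 of 14 was higher and 12 were lower, with a list median of −0.28 beside 0.01 for all genes. The higher one, Axin2, had 1.00 and 1.59 CPM against 0.293 and 0.0594 CPM and passed the filter on low counts only through the treated group. Among the lower ones Lrp6, the substrate of the CK1γ kinases, fell by −0.40 ± 0.05, the scaffold gene Axin1 by −0.38 ± 0.05 and Dvl3 by −0.44 ± 0.06. With the siRNA, 4 of 13 were higher and 2 lower, with a median of −0.03. Axin1 had 111.4 and 110.9 CPM against 53.9 and 47.4 CPM, a rise of 1.17 ± 0.07, and the scaffold gene Amer1 rose by 1.10 ± 0.14. Ctnnb1, which encodes β-catenin, had 398.0 and 403.8 CPM against 616.5 and 603.8 CPM and fell by −0.57 ± 0.04. With overexpression 1 of 14 was higher (Dvl2, 0.23 ± 0.06) and 1 lower (Ctnnb1, −0.09 ± 0.03).

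The clock list holds the PER and CRY genes and their partners. With SSTC3, 5 of its 8 genes were higher and 0 lower (27.1% and 26.5% of all genes), with a list median of 0.55. With the siRNA, 1 of 8 was higher and 5 lower (28.3% and 26.4% of all genes), with a list median of −0.55. Per2 had 20.8 and 20.2 CPM with SSTC3 and 6.27 and 6.65 CPM with DMSO, a rise of 1.72 ± 0.14, and Arntl, which encodes the activator BMAL1, rose by 1.27 ± 0.11. With the siRNA, Per1 had 25.5 and 26.0 CPM against 107.0 and 105.6 CPM, a fall of −2.01 ± 0.07, and Per3 (−1.45 ± 0.17) and Arntl (−0.83 ± 0.09) fell too. With overexpression, Clock alone passed (0.13 ± 0.04).

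Of the Hedgehog list, which holds the GLI factors and their regulators, 0 of 6 were higher and 5 lower with SSTC3 (27.1% and 26.5% of all genes), with a list median of −0.52 beside 0.01 for all genes. Gli2 had 9.48 and 6.67 CPM against 25.0 and 22.6 CPM and fell by −1.50 ± 0.13, and the genes of the inhibitors Ptch1 (−0.76 ± 0.06) and Sufu (−0.61 ± 0.05) fell as well. With the siRNA, 3 of 5 were higher and 1 lower (28.3% and 26.4% of all genes), with a list median of 0.37, and with Smo up by 1.15 ± 0.06, Gli3 up by 0.79 ± 0.12 and Gli1 down by −0.55 ± 0.13. With overexpression 0 of 6 were higher and 2 lower, Gli2 (−0.27 ± 0.08) and Sufu (−0.18 ± 0.06).

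The last list of substrates holds p53 and its ligases, immune proteins and the YAP and NFAT factors. With SSTC3, 6 of 13 were higher and 5 lower (27.1% and 26.5% of all genes), with a list median of 0.12. Mdm2, a p53 target whose product degrades p53, had 339.2 and 345.0 CPM against 73.1 and 70.8 CPM, a rise of 2.30 ± 0.05. Ifnar1, the interferon receptor chain that CK1α marks for degradation, rose by 0.66 ± 0.06, and Nfatc4 fell by −1.07 ± 0.09. With the siRNA, 2 of 12 were higher and 7 lower (28.3% and 26.4% of all genes), with a list median of −0.30. Yap1 rose by 0.63 ± 0.05 and its relative Wwtr1, with 42.5 and 42.0 CPM against 93.9 and 99.2 CPM, fell by −1.16 ± 0.07. Trp53 fell by −0.43 ± 0.05. With overexpression Mdm2 alone passed (−0.16 ± 0.02).

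More distant kinases gave a comparison. Of the CK1 superfamily relatives, the VRK and TTBK kinases, Ttbk2 was lower with SSTC3 (−0.45 ± 0.10, 1 of 5), none of 4 passed with overexpression, and Vrk2 was higher with the siRNA (1.07 ± 0.21, 1 of 4). CK2 is a kinase of another family, whose 3 subunit genes share the old casein kinase name. With SSTC3, 2 of 3 were lower, Csnk2a1 (−0.33 ± 0.05) and Csnk2a2 (−0.17 ± 0.04). With the siRNA, Csnk2a2 (0.72 ± 0.06) and Csnk2a1 (0.21 ± 0.05), which encode the catalytic subunits, were higher, and Csnk2b (−0.26 ± 0.06), which encodes the regulatory subunit, was lower. The rise of Csnk2a2 with the siRNA, from 68.1 and 68.9 to 111.2 and 108.8 CPM, was larger than that of Csnk1d in the same fit, and that difference was not tested. With overexpression, Csnk2b rose by 0.14 ± 0.04.

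Finally, each member was set beside the genes whose levels followed it most closely. The measure was Pearson's r of log2(CPM + 1), with CPM scaled by TMM factors, over the 12 libraries and among 13420 genes. The libraries fall into 3 cell sets, so r follows differences between sets as well as those within a set, and it is given as a description. For Csnk1a1 and Csnk1d, the difference between the groups of the knockdown set enters r as well. Csnk1a1 was closest to Gtf2a1 (r = 0.992), Klhl24 (0.989) and Has1 (0.987). Csnk1d was closest to Zmynd19 (0.982), Cstf1 (0.982) and Impa2 (0.981). The patterns of these 2 members were less common than those of the others, with 79 and 85 genes above an r of 0.9. Csnk1e, Csnk1g1, Csnk1g2 and Csnk1g3 had 1292, 749, 372 and 1821 such genes, led by Fam208a (0.989), Fam129b (0.993), Prickle1 (0.988) and Wapl (0.996).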

How the data were processed

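Per the submitters' processing notes, HISAT2 aligned the reads of the 12 libraries to mm10 and featureCounts counted them per gene. Not given in the sources used here are tool versions, strand setting and annotation. The deposited files hold the authors' raw counts per gene. Symbols, exons and transcript sequences come from GENCODE M21. Levels are CPM of the library total.

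Each comparison was fitted on its own 4 libraries, and differences between effects and between controls on all 12, with edgeR 4.0.16 (R 4.3.3): filterByExpr, TMM factors, robust quasi-likelihood F test, no block, and Benjamini-Hochberg adjustment over all genes tested at 0.05. Log2 fold changes carry an SE (absolute value over the root of F). Relations between genes used log2 of CPM scaled by TMM factors, with a pseudocount of 1. The procedure was tested on simulated data. Alternatives were DESeq2 1.42.0, limma-voom (3.58.1), library totals or RLE factors as the scaling, other filters, a shared fit, a replicate block, each library left out, and other lengths.

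Replicates differed by more than sampling noise (chi-square 2.29 to 3.61 per degree of freedom). With 2 libraries a group, an exact permutation test cannot go below p = 0.333, so shares and sums carry no test. Named genes are all 6 members, up to 3 called genes per list and comparison with the smallest adjusted p, genes overlapping a member's exons, and the genes most alike in pattern, 3 computed per member. A gene that the rule takes is not reported here. The pseudogene Gm14584, Trex1, Fam83c, Fam83g, Axin2 and the marker genes were added, for the reason given beside them, after their values were seen. Members and gene lists were chosen with earlier results of these data known.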

Additional observations from a re-analysis of the deposited data

Results flagged for a closer look

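Members whose effects differed between 2 comparisons were found by testing the difference between the effects with all 12 libraries in a single edgeR model. Knockdown minus SSTC3 gave log2 differences of −1.06 for Csnk1a1, 0.70 for Csnk1d, −0.29 for Csnk1e, 0.41 for Csnk1g1 and 0.27 for Csnk1g2. In that contrast Csnk1d rose with the siRNA and fell with SSTC3, while Csnk1g2 fell with SSTC3 and did not pass with the siRNA. Knockdown minus overexpression gave −0.98 for Csnk1a1, 0.45 for Csnk1d, −0.26 for Csnk1e and 0.40 for Csnk1g1. Overexpression minus SSTC3 gave 0.25 for Csnk1d and 0.23 for Csnk1g2, both of which fell with SSTC3 and did not pass with overexpression. Each comparison was made in its own cell set, so treatment and cells cannot be told apart in these differences.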

How the results depend on the processing

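In the SSTC3 comparison all 72 member values kept their side of the threshold. In the overexpression comparison the number of members called, 1, became 0 with DESeq2 and 0 with all 12 libraries in 1 fit, and ran from 0 to 1 when each library was left out in turn. Over all genes, 1863 calls there became 607 with DESeq2, 1188 with all 12 libraries, 1065 without OV_control replicate 1 and 1220 without OV_control replicate 2. The cause was not tested. Within a comparison, scaling by library totals moved the median of all genes by little (0.01 to −0.04 for SSTC3, 0.00 to 0.01 for overexpression, −0.01 to −0.04 for knockdown). In the knockdown comparison 5 of 72 member values changed side, all of Csnk1g2 or Csnk1g3, and Csnk1d ran from 0.47 to 0.57. With library totals, Csnk1d in OV_control minus knockdown_control reversed to 0.087. The same scaling brought Csnk1e (−0.13, adjusted p = 0.0207) and Csnk1g3 (−0.19, 0.00858) past the threshold in DMSO minus OV_control, and Csnk1g3 in knockdown minus SSTC3 (0.26, 0.041), in edgeR with Benjamini-Hochberg adjustment. The Csnk1a1 share moved with raw counts, the longest transcript and the longest coding sequence to 39.5%, 38.4% and 42.9% in DMSO, 28.5%, 28.2% and 31.5% in OV_control, and 44.4%, 43.0% and 47.7% in knockdown_control. The coding length of the RefSeq protein was not run, and the longest annotated coding sequence, chosen after seeing the data, took its place.

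Same-numbered libraries did not deviate together (correlations of −0.02, −0.01 and 0.01). The labels do not say that the numbers mark pairs, and such correlations cannot exclude it. With a replicate block, 2 members were called for SSTC3, 1 for overexpression and 5 for knockdown, as without it, and 7303, 1768 and 8066 genes in all. Counting depth limits Csnk1g3 in the knockdown set most, at 303 to 468 counts per library.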
